A study of Arabidopsis thaliana with 10 samples.

Results

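The subject is a set of 23 probe sets of the ATH1 array whose signal was lowest, as a rule, in rosette leaves of the Arabidopsis line ex2/flu. They were taken from 22746 probe sets, 14435 of which were bright enough to be tested. The groups are ex2/flu (flu with a T-DNA insertion in EXECUTER2), ex1/ex2/flu (flu with insertions in both EXECUTER genes), ex1/flu (flu with an insertion in EXECUTER1), the flu mutant and wild type, all in Columbia. Each group had 2 arrays, and each array was made from rosette leaves pooled from 5 plants. All plants grew on soil in continuous light until bolting, and were harvested 30 min into the light that followed a dark period of 8 h. The light intensity recorded for every array was 100 µmol per square metre per second. The flu1-1 allele arose in Landsberg erecta and was brought into Columbia by 5 backcrosses, and ex2/flu, ex1/ex2/flu and ex1/flu all carry it. Each genotype was represented by 1 line, ex1/ex2/flu being a segregant of a cross between ex1/flu and ex2/flu.

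The nuclear gene FLU encodes a plastid protein that holds back chlorophyll synthesis in the dark. Without it, protochlorophyllide builds up in the dark and, once light returns, passes its energy to oxygen, so that singlet oxygen forms inside the plastids. EXECUTER1 and EXECUTER2 are related plastid proteins needed to carry that signal to the nucleus, where it changes the expression of many stress genes.

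Members were chosen on the log2 signal, by genotype mean. The wild type mean had to reach 8.68, both ex2/flu arrays had to lie below both flu and both wild type arrays, and the ex2/flu mean had to be at least 0.8 below each of the flu and wild type means. The ex1/flu mean had to be less than 0.585 below the flu mean. Control probe sets, IVD, CHI and genes whose symbol starts with CYP were to be left out, which removed 0 probe sets that met the other conditions. These values therefore describe the members and carry no test. Only the ex1/ex2/flu arrays had no part in the choice.

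Of the 23 members, 3 are listed with a gene in the annotation used here: AT1G76960 (chromosome 1), AT3G51330 and AT3G19680 (both chromosome 3). AT3G51330 encodes a protein of the aspartyl protease family. AT3G19680 encodes a protein with a domain of unknown function. It lies within 4 Mb of FLU, with 625 protein-coding genes between them in the order of the TAIR10.1 table, whereas AT3G51330 is farther away. The other 20 probe sets are not listed in that annotation and are called by their identifiers. The identifiers of 4 members end in _s_at, the array's mark for probes that match more than one transcript.

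The arrays were comparable in brightness, with a median signal between 158 and 171 and a highest signal between 28449 and 36240. Across the tested probe sets the 2 arrays of a genotype correlated at 0.973 to 0.985. The probe set of EX1 (AT4G33630) had log2 signals of 7.53 and 7.81 in ex1/ex2/flu and 7.95 and 7.88 in ex1/flu, against 9.30 and 9.13 in ex2/flu, 9.59 and 9.59 in flu, and 9.24 and 9.59 in wild type. It was thus low in the lines labelled as lacking EX1. EX2 and FLU were not analysed here. Of 35 marker loci of leaf mesophyll, inflorescence, root, guard cells and trichomes, 4 had a probe set of their own. RCA, the activase of Rubisco and a leaf mesophyll marker, had genotype means of 14.03 (ex2/flu), 14.20 (ex1/ex2/flu), 14.13 (ex1/flu), 14.28 (flu) and 14.07 (wild type). GC1, a guard cell marker, had 11.13 (ex2/flu), 10.90 (ex1/ex2/flu), 11.24 (ex1/flu), 10.91 (flu) and 10.82 (wild type), and FAMA, a guard cell transcription factor gene, lay between 7.86 and 7.95. TRY, a regulator of trichome patterning, had 7.77 (ex2/flu), 7.89 (ex1/ex2/flu), 8.39 (ex1/flu), 7.85 (flu) and 7.61 (wild type). The part of these markers in the values of the members was not tested. Inflorescence and root markers were not analysed here.

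The rule fixed the lowest level a member could have in wild type. The wild type means of log2 signal ran from 8.86 to 13.61 with a median of 10.65. Their ex2/flu means ran from 7.58 to 12.08 with a median of 8.86. All 23 stayed at or above the 40th percentile of every array, a log2 signal of 6.42 to 6.53. The filter for testing asked for this on 2 or more arrays only, which the level set on wild type all but ensured. The signal in ex2/flu was 1.77-fold to 3.29-fold below flu (median 1.96-fold) and 1.74-fold to 5.39-fold below wild type (median 2.76-fold). Leaf pools were measured, so fewer cells of a type and less RNA per cell cannot be told apart.

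The label given to the set, lowered mainly in ex2/flu, holds only in part. The ex2/flu mean was the lowest of the 5 genotypes for 21 members, and the ex1/ex2/flu mean was the lowest for the other 2. Yet the wild type mean was the highest for 21 members, and the other lines mostly lay between. The ex1/flu mean was below wild type for 23 of 23 members (53.0% of all tested probe sets). Both ex1/flu arrays were below both wild type arrays for 21 (19.2% of all tested probe sets). The ex1/flu mean was below flu for 22 (49.0% of all tested probe sets), without overlap of the arrays for 13 (20.2% of all tested probe sets). Both ex1/flu arrays were above both ex2/flu arrays for 22 (16.9% of all tested probe sets). The flu mean was below wild type for 21 (55.2% of all tested probe sets). These counts are descriptions, since the rule used the arrays behind them.

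On the single arrays, the median member lay 1.49 and 1.49 log2 units below the wild type mean in ex2/flu. The corresponding medians were -0.89 and -1.28 on the ex1/ex2/flu arrays, -0.81 and -0.77 on the ex1/flu arrays, -0.31 and -0.66 on the flu arrays, and -0.01 and 0.01 on the wild type arrays. The median of all tested probe sets stayed between -0.07 and 0.02 on these arrays. The ordering of the genotypes for the median member was thus the same on either array of each, and one ex1/ex2/flu array lay close to the ex1/flu arrays.

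**Figure D1:**
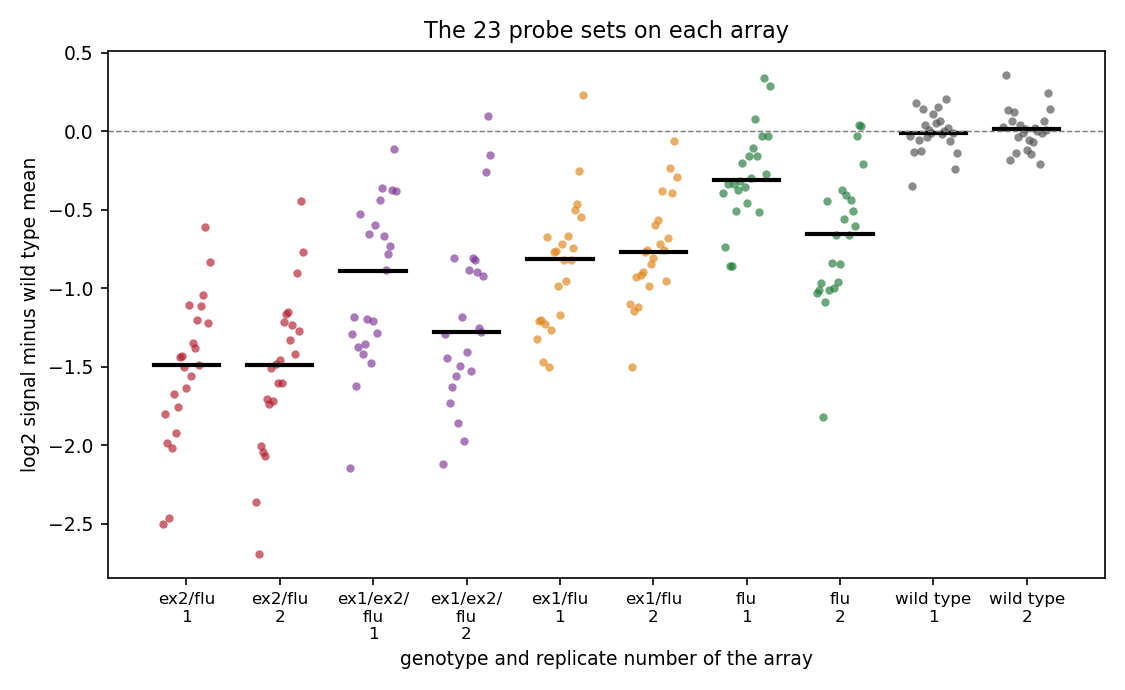
Log2 signal minus the wild type mean (vertical axis) for each of the 23 members on each of the 10 arrays (horizontal axis, genotype and replicate number), with the members in the same order within every array. Points are members and black bars their medians, which sit at -1.49 and -1.49 for ex2/flu, -0.89 and -1.28 for ex1/ex2/flu, and near 0 for wild type.

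The spread between the 2 arrays of a genotype was uneven. Flu replicate 2 was below flu replicate 1 for 20 of 23 members, with a median difference of -0.39. In ex1/ex2/flu replicate 2 was below replicate 1 for 19, by a median of -0.25. The median standard deviation of the members was 0.13 in ex2/flu, 0.17 in ex1/ex2/flu, 0.17 in ex1/flu, 0.27 in flu and 0.09 in wild type, while over all tested probe sets the flu value was 0.12. The flu arrays thus differed more for these members than for the table as a whole, as did the ex1/ex2/flu arrays (0.11 over all tested probe sets). In ex2/flu, ex1/flu and wild type the members differed less than all tested probe sets (0.15, 0.18 and 0.13). Flu replicate 1 also had a high mean of the spike-in probe sets (9.55 in log2), as had ex1/flu replicate 1 (9.59), and the other 8 arrays lay between 8.97 and 9.37. With spike-in level as a block the median member difference of flu minus wild type was -0.56, against -0.44 without it. The members followed each other over the 10 arrays: the correlation between members had a median of 0.88 over 253 pairs, with a range of 0.34 to 1.00. This is a description, since the rule chose members for a shared pattern and all points share the same arrays.

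AT1G76960 had log2 signals of 8.60 and 9.02 in ex2/flu, with 9.44 and 9.33 in ex1/ex2/flu, 9.59 and 10.13 in ex1/flu, 10.20 and 9.24 in flu, and 11.24 and 10.88 in wild type. Both wild type arrays were above all 8 others, and the 2 flu arrays differed by more than any other pair for this gene. Its ex2/flu mean was 4.77-fold below wild type and 1.88-fold below flu. It was the only member whose ex1/flu mean (9.86) was above its flu mean (9.72).

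AT3G51330 had 8.25 and 7.59 in ex2/flu, with 8.49 and 8.60 in ex1/ex2/flu, 8.61 and 8.47 in ex1/flu, 8.59 and 8.90 in flu, and 8.85 and 8.87 in wild type. The ex2/flu arrays of this protease gene stood apart below the other 8, and differed from each other more than any other pair did. The other 4 genotype means lay within 8.54 to 8.86. It was the dimmest member in wild type.

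AT3G19680 had 8.22 and 8.28 in ex2/flu, with 8.67 and 8.90 in ex1/ex2/flu, 9.28 and 8.76 in ex1/flu, 9.34 and 8.84 in flu, and 8.91 and 9.19 in wild type. Its ex2/flu arrays were close together and below the other 8. The other genotypes overlapped one another, except that ex1/ex2/flu (up to 8.90) lay just below wild type (from 8.91). Its ex2/flu mean was 1.74-fold below wild type, the smallest step in the set.

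**Figure D2:**
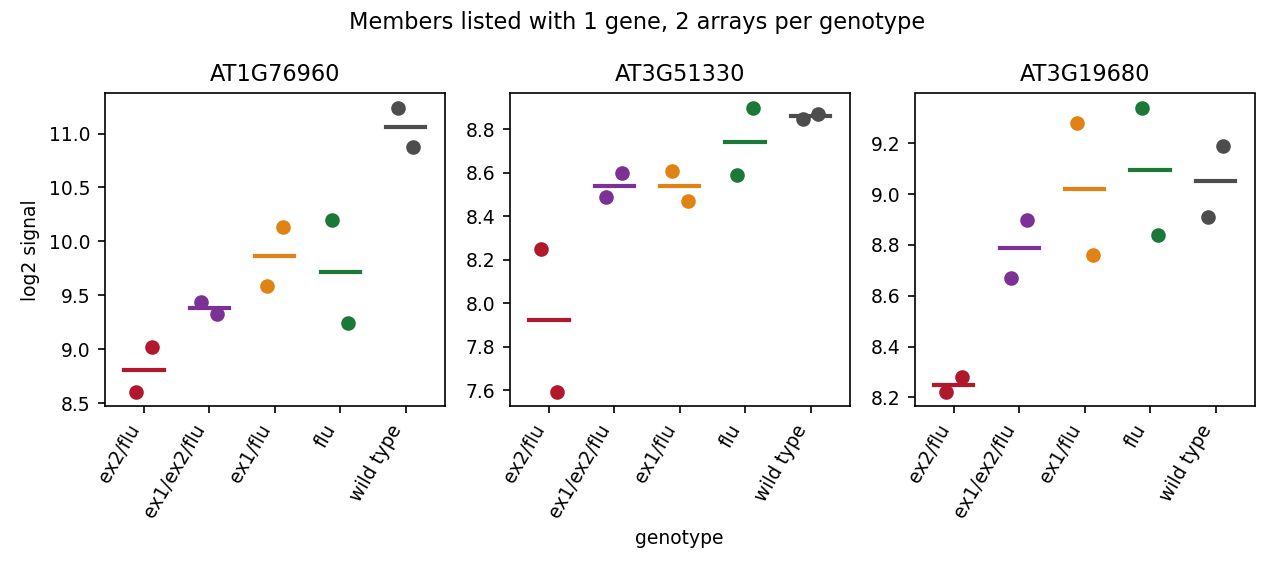
Log2 signal (vertical axis, a separate range in each panel) of the 3 members listed with a gene, by genotype (horizontal axis). Points are the 2 arrays of a genotype and bars their means, and in all panels both ex2/flu arrays lie below the arrays of the other genotypes.

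Among the members not listed with a gene, 266385_at had the largest step. Its log2 signals were 11.11 and 11.25 in ex2/flu, with 11.47 and 11.49 in ex1/ex2/flu, 12.29 and 12.51 in ex1/flu, 13.22 and 12.58 in flu, and 13.58 and 13.64 in wild type. No genotype overlapped another, and the line lacking both genes lay next to ex2/flu. Probe set 250445_at had 10.24 and 9.35 in ex2/flu, with 10.75 and 10.75 in ex1/ex2/flu, 10.83 and 10.54 in ex1/flu, 11.30 and 11.03 in flu, and 11.69 and 12.40 in wild type. Here the ex1/ex2/flu arrays lay among the ex1/flu arrays. These patterns of the double mutant line, near ex2/flu for the one and near ex1/flu for the other, recur among the remaining members.

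**Figure D3:**
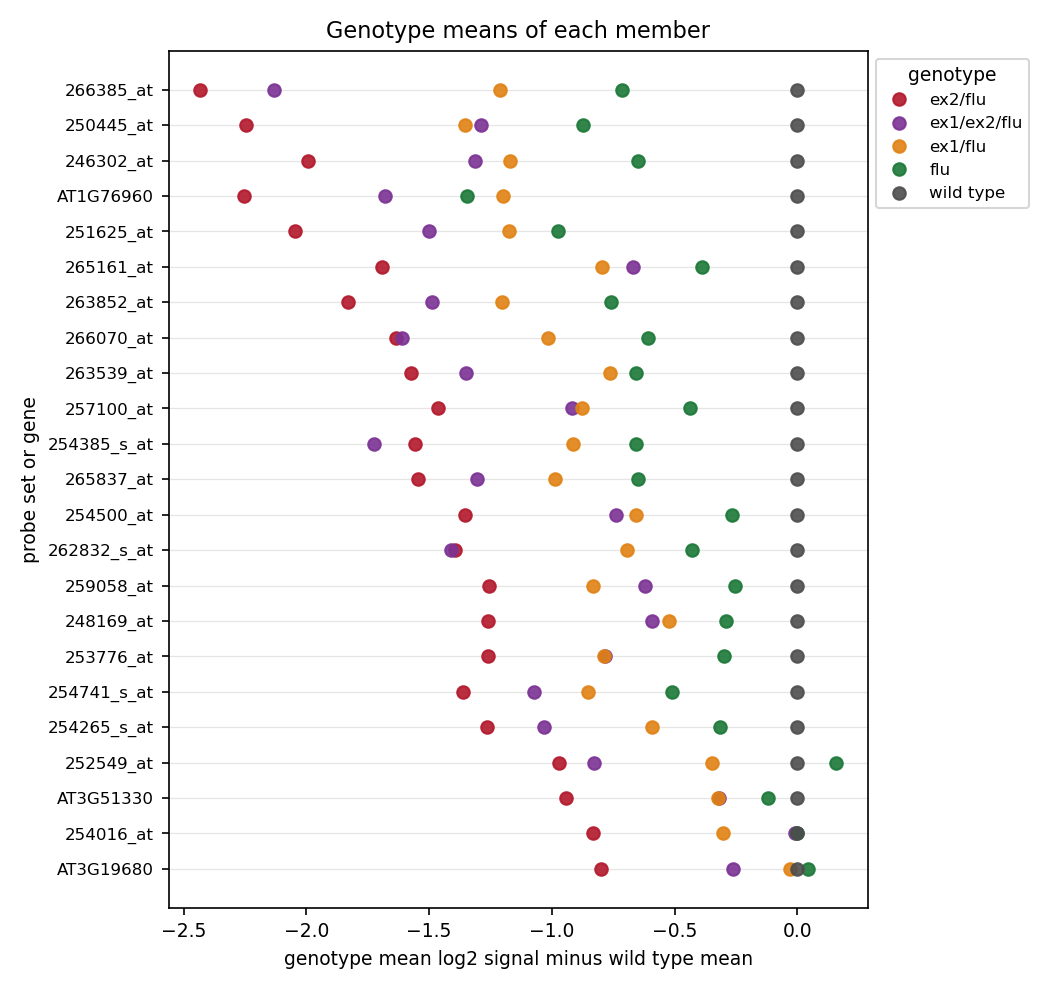
Mean log2 signal of each genotype minus the wild type mean (horizontal axis) for each member (vertical axis, ordered from the largest mean fall in ex2/flu at the top). Points are means of 2 arrays, coloured by genotype, and the ex2/flu point is leftmost for 21 of 23 members.

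Members and other probe sets lay close to the thresholds of the rule. For the level in wild type, AT3G51330 (8.86) and 257100_at (9.04) were just inside, and 248932_at (8.49) and 260225_at (8.34) just outside. For the step below flu and wild type, AT3G19680 (0.802) and AT3G51330 (0.821) were just inside, and 257122_at (0.797) and AT2G32160 (0.795) just outside. For ex1/flu minus flu, 259058_at (-0.58) and 246302_at (-0.52) were just inside, and AT3G28540 (-0.60) and 254975_at (-0.62) just outside.

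The limit on ex1/flu alone kept out 16 further probe sets, which were as low in ex2/flu but lower in ex1/flu too. Those listed with a gene are AT3G28540, of the AAA-ATPase family, AT3G18250, AT4G00700, AT5G42830, AT1G68620, AT3G22240, SAL2, an inositol polyphosphate phosphatase gene, and CCOAMT (AT1G67980), which encodes a caffeoyl-CoA methyltransferase. AT3G28540 had genotype means of 8.71 in ex2/flu, 9.25 in ex1/ex2/flu, 9.26 in ex1/flu, 9.86 in flu and 10.15 in wild type, the same order of genotypes as the median member. SAL2 had means of 8.30 in ex2/flu, 8.37 in ex1/ex2/flu, 8.55 in ex1/flu, 9.19 in flu and 9.89 in wild type. AT3G22240 was unlike the others, with means of 7.29 in ex2/flu, 6.99 in ex1/ex2/flu and 7.49 in ex1/flu, against 13.30 in flu and 14.31 in wild type. Its signal was thus far lower in all 3 lines carrying a T-DNA insertion, not mainly in ex2/flu.

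Whether losing EX2 lowers the members when EX1 is already absent was asked by comparing ex1/ex2/flu with ex1/flu, a comparison the rule did not use. The ex1/flu arrays entered the rule only through the limit against flu, which keeps out probe sets low in ex1/flu. That limit favours members higher in ex1/flu than in ex1/ex2/flu. Counts and p-values in this comparison are therefore not independent of the choice of members. For that reason nothing particular to the members is read from the shares beside them. No member passed: limma called 0 of 23 lower or higher, where 0.0346% of all tested probe sets were called lower. The smallest limma adjusted p of a member was 0.0724. With so few arrays per genotype, a member that did not pass is not thereby shown to be unchanged. At an unadjusted limma p under 0.05, 8 of the 23 members were lower and 0 higher, while 375 of all 14435 tested probe sets were lower. The median member differed by -0.23, with a range of -0.92 to 0.29, while the median of all tested probe sets was 0.02. The ex1/ex2/flu mean was the lower one for 17 members (45.4% of all tested probe sets) and the higher one for 6. Both ex1/ex2/flu arrays were below both ex1/flu arrays for 10 members, against 14.4% of all tested probe sets.

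The difference in this comparison was -0.92 ± 0.17 (SE, n = 2 arrays per genotype) for 266385_at, with a 95% interval of -1.28 to -0.57 and a limma adjusted p of 0.0724. It was -0.81 ± 0.21 for 254385_s_at (limma adjusted p 0.394) and -0.72 ± 0.16 for 262832_s_at (limma adjusted p 0.171). For AT1G76960 it was -0.48 ± 0.27, with a 95% interval of -1.04 to 0.09. For AT3G19680 it was -0.23 ± 0.21, with an interval of -0.68 to 0.21, and for AT3G51330 it was 0.00 ± 0.21, with an interval of -0.43 to 0.44. All 3 of these intervals include 0.

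**Figure D4:**
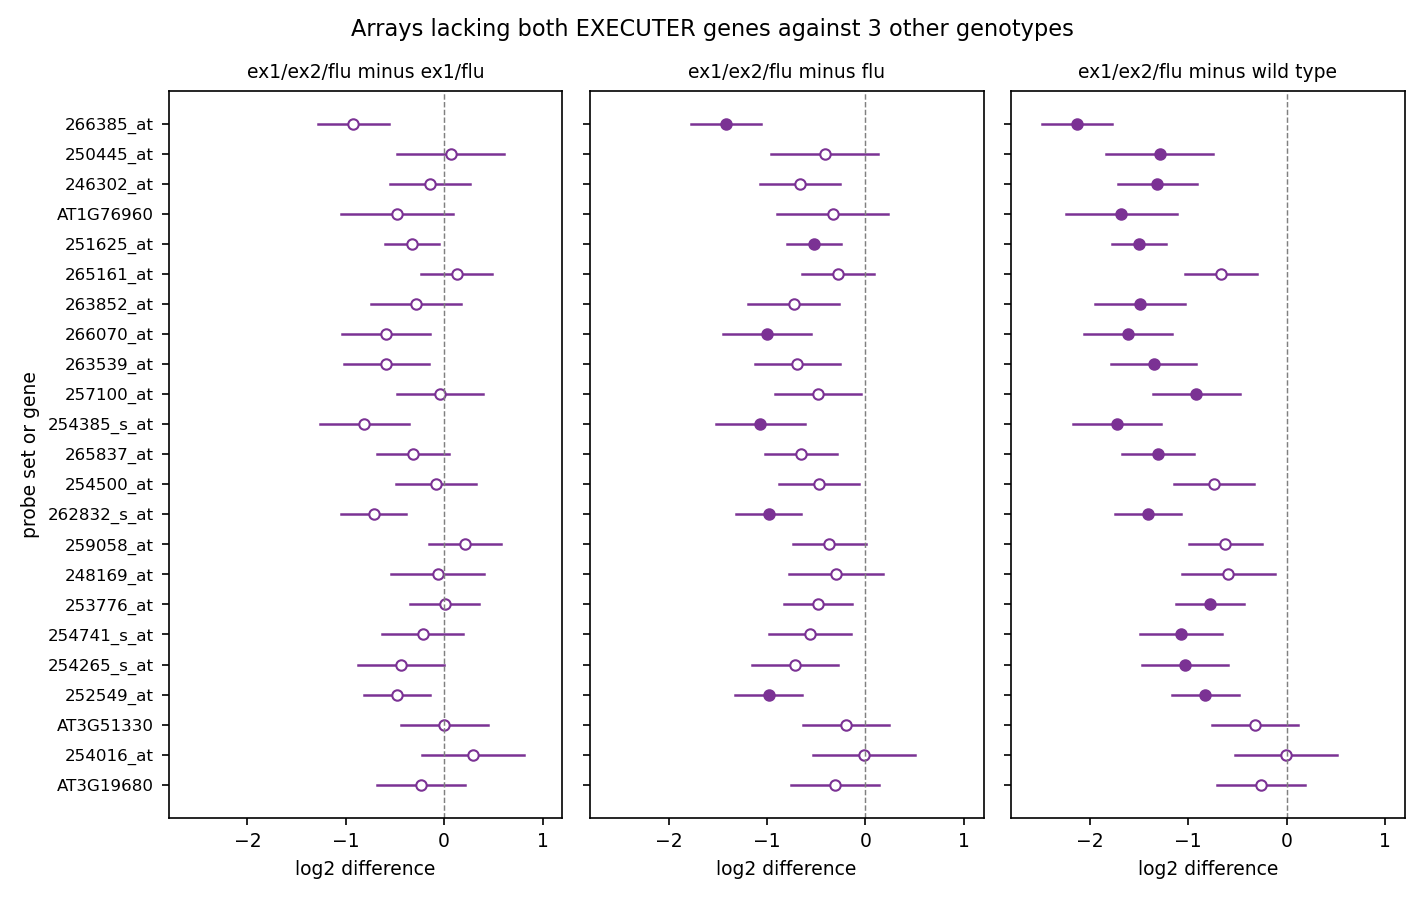
Log2 difference of ex1/ex2/flu minus ex1/flu, minus flu and minus wild type (horizontal axes) for each member (vertical axis). Points are limma estimates with unadjusted 95% intervals, filled where the adjusted p was under 0.05, which held for 0, 6 and 16 of the 23 members.

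Against flu, the line lacking both EXECUTER genes was lower for 6 of the 23 members by limma, where 2.51% of all tested probe sets were called lower. Flu arrays were chosen to lie above ex2/flu, so they are not independent of the choice of members. Nothing particular to the members is therefore read from the shares beside these counts. The 6 were 266385_at, 254385_s_at, 252549_at, 262832_s_at, 266070_at and 251625_at, which fell 1.44-fold to 2.68-fold. Of the others 17 did not pass, the 3 listed genes among them. The median member differed by -0.52 on the log2 scale, while the median of all tested probe sets was 0.04. Differences were below 0 for 23 of 23 members, against 43.5% of all tested probe sets. Both ex1/ex2/flu arrays were below both flu arrays for 17 members, against 22.2% of all tested probe sets. The count of 6 was 2 without flu replicate 1 and 1 without ex1/ex2/flu replicate 2.

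Probe set 266385_at fell by 1.42 ± 0.17 (SE, n = 2 arrays per genotype) in ex1/ex2/flu against flu, with a limma adjusted p of 0.000119. Probe set 252549_at had 10.65 and 10.46 in ex1/ex2/flu against 11.72 and 11.35 in flu, and fell by 0.98 ± 0.16 (limma adjusted p 0.00207). In wild type it had 11.32 and 11.45, so this member and AT3G19680 are the ones whose flu mean was above wild type. Probe set 262832_s_at, had 12.18 and 11.94 in ex1/ex2/flu against 13.17 and 12.91 in flu, and fell by 0.98 ± 0.16 (limma adjusted p 0.00185).

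Probe set 254385_s_at had 8.16 and 7.66 in ex1/ex2/flu against 9.28 and 8.67 in flu, and fell by 1.07 ± 0.21 (limma adjusted p 0.00977). Its ex2/flu arrays had 8.13 and 8.03, so it and 262832_s_at, with 11.91 and 12.25, are the members whose lowest mean was that of ex1/ex2/flu. Probe set 266070_at had 10.07 and 9.57 in ex1/ex2/flu against 11.05 and 10.59 in flu (limma adjusted p 0.0144), a call lost without the intensity trend (limma adjusted p 0.0711). Probe set 251625_at had 12.17 and 11.92 in ex1/ex2/flu against 12.69 and 12.46 in flu (limma adjusted p 0.0394), a call lost without the filter on dim probe sets, without the intensity trend and with a spike-in block. It was lost as well without either wild type or either flu array, or ex1/ex2/flu replicate 2. Of the 6, only 266385_at kept its call without each array in turn. The ex1/ex2/flu and flu arrays did not overlap for any of these 6.

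For the listed genes the difference of ex1/ex2/flu minus flu was -0.33 ± 0.27 for AT1G76960, -0.20 ± 0.21 for AT3G51330 and -0.31 ± 0.21 for AT3G19680 (limma SE, n = 2 arrays per genotype). Their limma adjusted p values were 0.609, 0.709 and 0.530. Each of these intervals includes 0, the widest running from -0.90 to 0.23.

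Against wild type, ex1/ex2/flu was lower for 16 of the 23 members by limma, where 0.859% of all tested probe sets were called lower. Wild type arrays were also chosen to lie above ex2/flu, and to reach a minimum level. The counts and p-values here are therefore not independent of the choice of members. Nothing particular to the members is read from the shares beside them. The falls ran from 1.72-fold to 4.38-fold, and the 16 held all 6 that were also lower than flu, and 10 more. The median member differed by -1.07, and the median of all tested probe sets by 0.01. Both ex1/ex2/flu arrays were below both wild type arrays for 22 of 23 members, against 20.9% of all tested probe sets. The count of 16 was 9 without wild type replicate 1 and 7 without ex1/ex2/flu replicate 2.

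AT1G76960 fell by 1.68 ± 0.27 (SE, n = 2 arrays per genotype) in ex1/ex2/flu against wild type, with a limma adjusted p of 0.00378. The call was lost without wild type replicate 1 and without ex1/ex2/flu replicate 2. Probe set 266385_at fell by 2.13 ± 0.17 (limma adjusted p 6.73e-06) and 251625_at, with 12.17 and 11.92 in ex1/ex2/flu against 13.49 and 13.61 in wild type, by 1.50 ± 0.13 (limma adjusted p 1.42e-05). The difference was -0.32 ± 0.21 for AT3G51330 and -0.26 ± 0.21 for AT3G19680, and neither passed (limma adjusted p 0.693 and 0.783). For 254016_at it was -0.01 ± 0.24, the smallest of the set. In ex1/ex2/flu this member had 9.31 and 9.52, among its 9.18 and 9.67 in wild type.

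The ex1/ex2/flu mean was above the ex2/flu mean for 21 members, with a median difference of 0.54. It was below the ex2/flu mean for 2, against 39.9% of all tested probe sets. Both ex1/ex2/flu arrays were above both ex2/flu arrays for 16 (28% of all tested probe sets). Because ex2/flu arrays were chosen to be low, this is a description. The largest such difference was 1.02 for 265161_at, which had 9.12 and 8.84 in ex1/ex2/flu, against 7.97 and 7.94 in ex2/flu. It had 8.97 and 8.73 in ex1/flu, 9.31 and 9.20 in flu, and 9.52 and 9.77 in wild type, so that only its ex2/flu arrays lay below 8.73. The members thus range from this one, with the double mutant line level with ex1/flu, to 254385_s_at, with the double mutant line at the level of ex2/flu.

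Flu against wild type shows the members in the mutant with both EXECUTER genes intact. Both genotypes were chosen to lie above ex2/flu by the same step, but the minimum level was set on wild type alone, which favours members higher in wild type than in flu. The counts below are therefore not independent of the choice of members, and nothing particular to the members is read from the shares beside them. Limma called 4 of the 23 members lower in flu, where 1.02% of all tested probe sets were called lower. They were AT1G76960, 251625_at, 265837_at and 266385_at, with falls of 1.57-fold to 2.54-fold. The median member differed by -0.44, and both flu arrays were below both wild type arrays for 18 members, against 27.1% of all tested probe sets. The count of 4 was 2 without wild type replicate 1 or replicate 2, 7 without flu replicate 1 and 1 without flu replicate 2.

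AT1G76960 fell by 1.34 ± 0.27 (SE, n = 2 arrays per genotype) in flu against wild type (limma adjusted p 0.00767), a call lost without wild type replicate 1 or flu replicate 2 and without the intensity trend of the test. Probe set 251625_at, with 12.69 and 12.46 in flu against 13.49 and 13.61 in wild type, fell by 0.98 ± 0.13 (limma adjusted p 0.000224). Probe set 265837_at, with 11.42 and 11.03 in flu against 11.99 and 11.76 in wild type, fell by 0.65 ± 0.17 (limma adjusted p 0.0485). Probe set 266385_at fell by 0.71 ± 0.17 (limma adjusted p 0.0247). The last 2 calls were lost without the filter, without the trend, and without either wild type array or flu replicate 2. That of 265837_at was also lost with either block and without either ex1/ex2/flu array. The difference was -0.12 ± 0.21 for AT3G51330 and 0.04 ± 0.21 for AT3G19680.

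The calls of these comparisons fell on overlapping members. The comparisons of ex1/ex2/flu with flu and with wild type share their ex1/ex2/flu arrays, and those with wild type share the wild type arrays. Probe sets 251625_at and 266385_at passed in all 3 comparisons that gave calls. The 7 members that passed in none of the 4 comparisons were AT3G51330, AT3G19680, 248169_at, 254016_at, 254500_at, 259058_at and 265161_at.

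Gene lists of defence, starvation, senescence and metabolism were read in ex2/flu against flu for genes that are not members. Of 150 loci in 10 lists, 23 had a tested probe set of their own, and 0 were members. Limma called 1 of the 23 genes higher and 2 lower, where 0.333% of all tested probe sets were called higher and 0.707% lower. The 2 called lower, CHI and IVD, are the genes that the rule leaves out by name. The lists were also chosen with earlier results of these data known, so nothing about the lists is read from these shares. The median difference over these genes was -0.03, against -0.01 over all tested probe sets. The count of 3 called genes was 1 without either flu array or either ex2/flu array.

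In the salicylic acid list 1 of 3 measured genes fell. This was the chitinase gene CHI (AT2G43570), with 9.23 and 9.35 in ex2/flu against 11.50 and 10.86 in flu, and with 11.76 and 11.96 in wild type. It fell by 1.89 ± 0.22 (SE, n = 2 arrays per genotype) with a limma adjusted p of 0.000809. Its genotype means, 9.29 in ex2/flu, 10.09 in ex1/ex2/flu, 10.05 in ex1/flu, 11.18 in flu and 11.86 in wild type, placed ex2/flu lowest and wild type highest, as for most members, with ex1/ex2/flu and ex1/flu level. SAG101, a partner of the immune regulator EDS1, differed by 0.11 ± 0.24 and GRX480, a glutaredoxin gene induced by salicylic acid, by -0.01 ± 0.26.

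In the list of dark starvation and branched-chain amino acid breakdown 1 of 8 measured genes fell. IVD (AT3G45300), which encodes isovaleryl-CoA dehydrogenase of leucine breakdown, had 8.82 and 8.94 in ex2/flu against 10.37 and 10.20 in flu and fell by 1.40 ± 0.25 (limma adjusted p 0.0193). The call was lost without the filter, without the trend and without any 1 of the flu or ex2/flu arrays. In wild type it had 9.01 and 9.28, so that ex2/flu lay near wild type. No member could show this, since the rule set their ex2/flu means at least 0.8 below wild type. MCCA, a subunit of the carboxylase that follows in leucine breakdown, differed by -1.12 ± 0.26 (limma adjusted p 0.0519), and AKINBETA1, a subunit of the starvation-sensing SnRK1 kinase, by -0.70 ± 0.21 (0.141). The median of the 8 was -0.50.

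In the jasmonate list 1 of 3 measured genes rose. THI2.1, a thionin gene, had 8.77 and 8.62 in ex2/flu against 7.34 and 7.60 in flu and rose by 1.23 ± 0.26 (limma adjusted p 0.0355), a call lost without the filter on dim probe sets, without the intensity trend, with a spike-in block and without any 1 of the wild type, flu or ex2/flu arrays. PDF1.2, a defensin gene, differed by 0.84 ± 0.27 (limma adjusted p 0.170) and OPCL1, a ligase gene of jasmonate synthesis, by 0.36 ± 0.18 (0.388). All 3 differences were above 0, but only that of THI2.1 passed. The rule fixed the sign of the members in this comparison, so no contrast with them is drawn.

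The other lists gave 0 calls. Of the senescence list, WRKY53, a transcription factor gene, differed by 0.24 ± 0.19 and WRKY6 by -0.24 ± 0.35. Of the genes of protein folding in the endoplasmic reticulum, CRT2, a calreticulin gene, differed by -0.12 ± 0.14 and ERDJ3B, a co-chaperone gene, by 0.07 ± 0.16. Of the flavonoid genes, DFR, a reductase of anthocyanin synthesis, differed by 0.21 ± 0.26, and UF3GT, a glycosyltransferase gene near the level of the filter, by -0.03 ± 0.38. The clock, glucosinolate, and sulfate and phosphate lists had 1 measured gene each, and the genes of nitrogen assimilation were not analysed here.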

How the data were processed

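The deposited table holds the signal of every probe set as a linear intensity, which the authors made with GCOS 1.2 and MAS5 per the submitters' processing notes. The settings of background and scaling were not found in the sources used here. The trimmed mean of every array lay near 500.05, so a common scaling had been applied. Signals were taken as log2 with no further normalization. Besides the 64 control probe sets, dim ones were set aside: 14435 (63.5%) were at or above their array's 40th percentile on 2 or more of the 10 arrays. R 4.3.3 with limma 3.58.1 estimated a mean for each genotype from all arrays jointly (5 residual degrees of freedom, prior 10.0, intensity trend). Calls required a Benjamini-Hochberg adjusted p under 0.05 over all tested probe sets, and errors are limma's moderated standard errors. The fit was tested on simulated data. With 2 arrays against 2, no exact permutation test can give a two-sided p below 0.333.

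The annotation table lists 13513 probe sets with 1 gene and 503 with several, and does not list 8730. The RefSeq table of TAIR10.1 served for names and gene order only. The members and gene lists were chosen with earlier results of these data known. Named were all members listed with a gene, members called in a test, members and probe sets next to a threshold, EX1, and up to 3 genes per list with the lowest adjusted p. The other genes kept out by the limit on ex1/flu, and the members 248169_at, 254016_at, 254500_at and 265161_at, were named after their values were seen. Alternatives were quantile normalization, no filter, no intensity trend, fewer arrays, blocks for replicate number and spike-in level, an offset of 16, and other settings of the rule. Python 3.11.15 with matplotlib 3.10.9 drew the figures. No sequences were used here.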

Additional observations from a re-analysis of the deposited data

How the results depend on the processing

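The rule found 10 probe sets with a step of 1 log2 unit, 39 without the limit on ex1/flu and 288 without the level in wild type, against 23, and 18 to 34 without 1 array. Of the 23, 14 were found again without flu replicate 1 and 11 without flu replicate 2. In ex1/ex2/flu against ex1/flu, the 5 probe sets called became 0 without the filter and without the intensity trend, 1 with the arrays compared alone, 25 with a spike-in block and 0 to 17 without 1 array. Members called were 0 under every alternative run, and their median ran from -0.36 to -0.15 without 1 array. In ex1/ex2/flu against flu, 433 became 277 without the trend, 664 with the arrays compared alone and 129 to 655 without 1 array, members called 1 to 8 and their median -0.74 to -0.35. In ex1/ex2/flu against wild type, 180 became 99, 276 and 53 to 257 in the same settings, members called 7 to 17 and their median -1.28 to -0.89 without 1 array. In flu against wild type, 555 became 256 to 716 without 1 array. Members called there were 2 without the filter, 1 without the trend, 7 with the arrays compared alone and 1 to 7 without 1 array, and their median -0.66 to -0.31. In ex2/flu against flu, 150 became 42 without the filter, 10 without the trend, 274 with the arrays compared alone, 74 with a spike-in block and 8 to 258 without 1 array. List genes called there were 1, 1 and 6 in the first 3 of these settings and 1 to 4 without 1 array, against 3. The cause of these shifts was not tested. With a genotype left at 1 array, that array is assumed to vary like the others. No single difference that was called changed sign. The replicate numbers were not taken to pair the arrays. Their deviations correlated at -0.09 to 0.09 between genotypes, except for ex2/flu and ex1/flu, at 0.43. What lies behind that value was not tested. With a replicate block, members called were 0, 7, 16 and 3 in the 4 comparisons of members, probe sets called were 6, 463, 193, 549 and 151 in the 5 comparisons, and 265837_at lost its call in flu against wild type. Nothing says that pools came from separate sowings, so p-values measure the spread between these pools.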
